A study of Homo sapiens and Mus musculus with 19 samples.

Results

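The 10 genes described here, NT5DC4, C17orf99, SOX5, RPS6KL1, LRAT, ST8SIA1, AREG, GLIS3, COL6A2 and COL14A1, were among the K562 genes whose chromatin-associated RNA (caRNA) differed most between shMBD6 and shControl, or whose shMBD6 change differed most between TET2 genotypes. They were 10 of 58721 annotated genes in the K562 tables, and all 10 were among the 26023 that passed the filter on low counts. The genes were selected on 3 measured values, the shMBD6 change in TET2 wild type (WT), the shMBD6 change in TET2 knockout (KO) and the difference between these changes (the interaction), so these values are given as a description with no test. The rule set no threshold. Ranked by size among tested genes that moved the same way, the 10 held ranks 36 to 1006 in TET2 WT, 349 to 3547 in TET2 KO and 29 to 1025 by interaction.

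The libraries came from K562, a human leukaemia line with erythroid features, fractionated so that RNA bound to chromatin was kept. Cells were TET2 WT or TET2 KO and had received by lentivirus, under puromycin, either an shRNA targeting MBD6 (shMBD6) or a control hairpin (shControl), with 3 libraries in each of the 4 groups and 1 shRNA per target. The study describes its genome-wide replicates as biological. The TET2 KO line was obtained from another laboratory, and the sources used here do not state whether it was 1 clone or whether the replicates of a group were separate cultures or transductions, so p-values measure the spread between these libraries. Mouse orthologues of the 10 genes were read in mouse embryonic stem cells (mESC) transfected with an siRNA targeting Nsun2 (siNsun2) or a control siRNA (siControl), with 3 libraries each.

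As background, TET2 is a dioxygenase that oxidises 5-methylcytosine in DNA and RNA, and MBD6 is a methyl-binding-domain protein that associates with the enzyme complex removing ubiquitin from histone H2A. NSUN2 is a methyltransferase that writes 5-methylcytosine on RNA. RNA in the chromatin fraction is rich in nascent, unspliced transcripts, so its level follows transcription more closely than that of mature mRNA. The 10 genes share no pathway. AREG encodes amphiregulin, a ligand of the EGF receptor, and C17orf99 encodes interleukin 40, a cytokine of activated B cells. SOX5 and GLIS3 encode transcription factors, of the SOX and the Krüppel-like zinc finger kind. COL6A2 and COL14A1 encode collagen chains. LRAT encodes the enzyme that esterifies retinol for storage, ST8SIA1 the sialyltransferase that makes ganglioside GD3, NT5DC4 a protein with a nucleotidase domain and RPS6KL1 a protein related to the ribosomal S6 kinases.

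TET2 and MBD6 both act around cytosine methylation, so the CpG content before the start of each gene was read from RefSeq sequence of GRCh38.p14. For 9 of the 10 genes a window of 250 bases before the RefSeq start was read, using the start nearest to the annotated gene start. COL14A1 was left out, so its window was not read. Windows of 4 genes are printed 5′ to 3′ on the strand of the gene with each CpG in capitals, 2 from genes that were lower with shMBD6 in TET2 WT (C17orf99 and AREG) and 2 from genes that were higher (LRAT and GLIS3). C17orf99 was at chr17:78146135-78146384, plus strand, AREG at chr4:74444886-74445135, plus strand, LRAT at chr4:154743750-154743999, plus strand, and GLIS3 at chr9:4298497-4298746, minus strand.
C17orf99: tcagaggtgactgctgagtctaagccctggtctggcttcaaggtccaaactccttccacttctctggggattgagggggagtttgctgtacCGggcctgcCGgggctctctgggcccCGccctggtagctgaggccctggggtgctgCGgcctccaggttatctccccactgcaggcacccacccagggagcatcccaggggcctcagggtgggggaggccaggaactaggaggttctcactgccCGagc
AREG: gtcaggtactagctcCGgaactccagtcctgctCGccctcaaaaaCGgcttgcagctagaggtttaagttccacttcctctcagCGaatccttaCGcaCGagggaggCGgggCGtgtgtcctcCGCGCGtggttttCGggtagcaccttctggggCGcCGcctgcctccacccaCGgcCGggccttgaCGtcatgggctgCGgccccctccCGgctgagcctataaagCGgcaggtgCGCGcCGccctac
LRAT: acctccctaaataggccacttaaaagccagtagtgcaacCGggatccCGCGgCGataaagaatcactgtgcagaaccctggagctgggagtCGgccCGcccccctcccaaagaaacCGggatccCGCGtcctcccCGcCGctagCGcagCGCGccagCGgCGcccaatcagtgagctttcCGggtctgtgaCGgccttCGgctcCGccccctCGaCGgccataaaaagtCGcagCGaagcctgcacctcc
GLIS3: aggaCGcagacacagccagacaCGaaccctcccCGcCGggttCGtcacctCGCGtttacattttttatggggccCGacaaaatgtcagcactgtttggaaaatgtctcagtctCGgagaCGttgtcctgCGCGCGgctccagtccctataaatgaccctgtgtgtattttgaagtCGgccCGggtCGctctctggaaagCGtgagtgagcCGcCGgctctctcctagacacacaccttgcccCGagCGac

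The windows of C17orf99 and AREG, genes that moved together, differed in CpG content, with 5 CpGs in the first and 23 in the second. LRAT held 24 and GLIS3 held 21. Among the other genes, NT5DC4 held 3 CpGs, RPS6KL1 16, SOX5 27, ST8SIA1 28 and COL6A2 28, and the median over 34786 RefSeq windows was 11. CpG content therefore ran from percentile 22.9 to percentile 84.1 and overlapped between the genes that were lower and those that were higher with shMBD6 in TET2 WT. Motifs were searched as letters on both strands. TATAAA, the TATA box, was found before AREG, GLIS3 and COL6A2 and in 10.8% of all windows. TGACGTCA, the motif of CREB and ATF factors, was found before AREG and in 1.64% of windows, and AGATAA, the GATA motif, was found before C17orf99 and in 9.21%. GGGCGG, the GC box, was in 7 of the 9 windows against 42.6% of all windows, and TGANTCA, the AP-1 motif, was in 0 of the 9 against 6.59%. CCACCC, the CACCC box, was in 6 against 31.2%, CANNTG, the E-box, in 2 against 61.8%, and CCAAT in 3 against 32.0%. TGACNNNGC, the antioxidant response element, was found before NT5DC4 and in 10.9% of windows. These letters were counted in this window alone. For LRAT, ST8SIA1 and GLIS3 the RefSeq start lay 117055, 102334 and 49896 bases inside the annotated gene, so their windows stand for 1 of several starts.

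The shRNA target was checked first. MBD6 read 43.3, 42.7 and 38.6 CPM (read counts scaled to a common library size by the TMM method) with shControl in TET2 WT and 31.0, 25.7 and 27.2 CPM with shMBD6. It was lower by a log2 change of −0.57 ± 0.08 (SE, adjusted p = 1.83e-07). CPM scaled in this way is relative within a library, so a shift of all caRNA between groups would not show in it. In TET2 KO, MBD6 read 30.6, 30.8 and 29.4 CPM in shControl and 30.6, 38.3 and 34.2 CPM in shMBD6, a log2 change of 0.19 ± 0.08 (adjusted p = 0.0574) in the direction opposite to the label. The TET2 KO arms are therefore written as the libraries labelled shMBD6 and shControl, and every direction given for TET2 KO rests on these labels. TET2 caRNA itself read 118.0 to 124.0 CPM with shControl and 117.0 to 125.0 CPM with shMBD6 in TET2 WT. In TET2 KO it read 131.0, 129.0 and 127.0 CPM and 91.9, 101.0 and 91.6 CPM, so these counts do not check the knockout, since a knockout can leave the transcript in place.

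Gene counts per K562 library ran from 52158403 to 102070223. The number of genes with at least 1 count ran from 28970 to 31932 for TET2 WT shControl and from 33529 to 34601 for its shMBD6 arm, and from 28400 to 29073 and from 24480 to 26963 for the same arms of TET2 KO. Of 13 markers of K562 cells, 10 or 11 had counts in every library of a group. The globin genes HBE1 and HBG2 were at 0 in all 4 groups. These 0 values need not mean absent RNA, since 95.3% of genes enclosed by another gene on the same strand were at 0. Whether this applies to HBE1 and HBG2 was not tested. The summed level of the 13 markers was 1160 to 1190, 720.0 to 743.0, 604 to 617 and 829 to 844 CPM in the same order of groups. The largest part was TFRC, with means of 578.0, 356.0, 318.0 and 470.0 CPM. The markers did not all move together, and ALAS2 read 25.3, 37.4, 31.2 and 21.9 CPM. Summed levels of 8 mesenchymal markers were 1.51 to 2.35, 6.45 to 6.71, 4.3 to 5.88 and 2.61 to 2.95 CPM, with PDGFRA at 0 in all groups but TET2 WT shMBD6, LUM at 0 in both TET2 KO groups and THY1 at 0 in TET2 KO shMBD6. The 9 lymphoid markers, which bear on C17orf99, summed to 8.17 to 9.04, 15.6 to 17, 8.17 to 8.67 and 4.95 to 9.49 CPM, with CD79B at 0 in all groups but TET2 WT shMBD6, MS4A1 in both TET2 KO groups and CD2 in TET2 KO shMBD6. The 9 megakaryocyte markers summed to 51.3 to 59.7, 42.9 to 48.2, 29.7 to 35.7 and 28.6 to 33.0 CPM, with GP9 and PF4 at 0 in all groups but TET2 WT shMBD6 and PPBP at 0 in both TET2 KO groups. The part of these differences in the levels of the 10 genes was not tested.

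The question was how the levels of the 10 genes differed between shMBD6 and shControl with and without TET2. They followed 2 mirrored patterns. AREG, C17orf99, SOX5, ST8SIA1, NT5DC4 and RPS6KL1 were lower with shMBD6 than with shControl in TET2 WT and higher in the TET2 KO libraries labelled shMBD6 than in those labelled shControl. GLIS3, COL6A2, COL14A1 and LRAT were higher in the first comparison and lower in the second. For all 10 genes the 3 libraries of each arm did not overlap with the 3 of the other arm in either genotype. Since the genes were chosen on these changes, nothing is read from that. In these bulk libraries fewer cells of a type and less RNA per cell cannot be told apart.

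**Figure D1:**
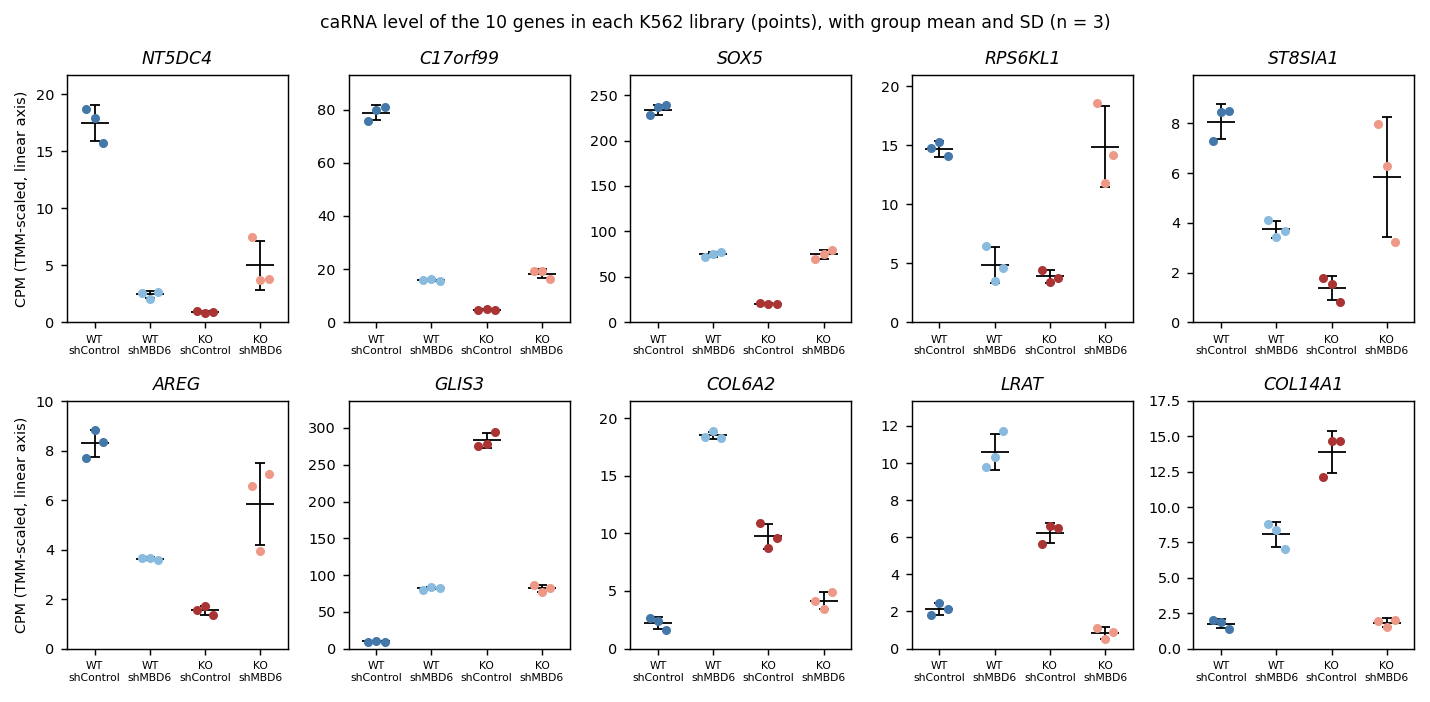
Level of each of the 10 genes in every K562 library. The vertical axis is CPM with TMM scaling on a linear scale from 0, points are libraries, and black marks are the mean and SD of 3 libraries. In all 10 panels the shControl and shMBD6 points are apart within each genotype. Their order in TET2 KO is the reverse of that in TET2 WT. The genes were chosen on these changes.

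Among genes for secreted signals, AREG in TET2 WT read 7.72, 8.82 and 8.36 CPM with shControl and 3.67, 3.67 and 3.57 CPM with shMBD6. In TET2 KO, AREG read 1.55, 1.71 and 1.36 CPM in the libraries labelled shControl and 6.56, 3.95 and 7.04 CPM in those labelled shMBD6. The ligand was thus 2.28-fold lower with shMBD6 in TET2 WT (log2 change −1.19 ± 0.19, SE) and 3.81-fold higher in TET2 KO (1.93 ± 0.20), and the TET2 KO shMBD6 libraries were the most spread. C17orf99 in TET2 WT read 75.5, 79.9 and 81.0 CPM with shControl and 15.9, 16.3 and 15.4 CPM with shMBD6. In TET2 KO the cytokine gene read 4.60, 5.14 and 4.61 CPM in shControl and 19.4, 19.2 and 16.3 CPM in shMBD6. Its level fell by 2.31 ± 0.08 on the log2 scale in TET2 WT and was higher by 1.94 ± 0.08 in TET2 KO, with TET2 WT shControl standing above all other groups.

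Of the transcription factor genes, SOX5 in TET2 WT read 228.0, 237.0 and 239.0 CPM with shControl and 71.6, 75.4 and 77.4 CPM with shMBD6. In TET2 KO, SOX5 read 21.1, 19.7 and 20.4 CPM in shControl and 69.7, 75.2 and 79.8 CPM in shMBD6. SOX5 was therefore 3.14-fold lower with shMBD6 in TET2 WT and 3.67-fold higher in TET2 KO, and both shMBD6 groups overlapped at means of 74.8 ± 2.94 and 74.9 ± 5.04 CPM (SD, n = 3). GLIS3 ran the other way, with 9.37, 10.5 and 9.24 CPM in TET2 WT shControl and 80.3, 83.1 and 82.0 CPM in TET2 WT shMBD6. In TET2 KO, GLIS3 read 276.0, 278.0 and 295.0 CPM in shControl and 86.8, 77.4 and 82.2 CPM in shMBD6. GLIS3 was 8.42-fold higher with shMBD6 in TET2 WT and 3.45-fold lower in TET2 KO, and its shMBD6 groups also overlapped, at 81.8 ± 1.42 and 82.1 ± 4.67 CPM.

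The collagen genes moved with GLIS3. COL6A2, a chain of microfibril-forming collagen VI, read 2.67, 2.36 and 1.59 CPM in TET2 WT shControl and 18.4, 18.9 and 18.3 CPM in TET2 WT shMBD6. In TET2 KO, COL6A2 read 10.9, 8.74 and 9.62 CPM in shControl and 4.14, 3.39 and 4.90 CPM in shMBD6. COL6A2 was 8.44-fold higher with shMBD6 in TET2 WT, a change as large as that of GLIS3, and 2.35-fold lower in TET2 KO, the smallest TET2 KO change of the 10 genes. COL14A1, a collagen that sits on the surface of fibrils, read 2.01, 1.88 and 1.41 CPM in TET2 WT shControl and 8.79, 8.38 and 7.05 CPM in TET2 WT shMBD6. In TET2 KO, COL14A1 read 12.1, 14.7 and 14.7 CPM in shControl and 1.98, 1.5 and 2.05 CPM in shMBD6. COL14A1 was 4.58-fold higher in the first comparison and 7.51-fold lower in the second, and TET2 WT shControl and TET2 KO shMBD6 overlapped at the low end.

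Among the genes for enzymes, LRAT read 1.81, 2.44 and 2.11 CPM in TET2 WT shControl and 9.79, 10.3 and 11.7 CPM in TET2 WT shMBD6. In TET2 KO, LRAT read 5.61, 6.62 and 6.47 CPM in shControl and 1.13, 0.513 and 0.896 CPM in shMBD6. The retinol-esterifying gene was 4.97-fold higher with shMBD6 in TET2 WT and 7.37-fold lower in TET2 KO, and all 4 groups were apart. ST8SIA1 read 7.27, 8.44 and 8.49 CPM in TET2 WT shControl and 4.12, 3.42 and 3.65 CPM in TET2 WT shMBD6. In TET2 KO, ST8SIA1 read 1.79, 1.52 and 0.830 CPM in shControl and 7.99, 6.29 and 3.22 CPM in shMBD6. ST8SIA1 had the smallest TET2 WT change of the 10 genes, 2.16-fold lower, was 4.22-fold higher in TET2 KO, and its TET2 KO shMBD6 libraries overlapped with both TET2 WT groups.

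NT5DC4 read 18.7, 17.9 and 15.7 CPM in TET2 WT shControl and 2.61, 2.05 and 2.66 CPM in TET2 WT shMBD6. In TET2 KO, NT5DC4 read 0.989, 0.836 and 0.856 CPM in shControl and 7.51, 3.68 and 3.79 CPM in shMBD6, where replicate 1 stood above the other two. NT5DC4 was 7.12-fold lower with shMBD6 in TET2 WT and 5.54-fold higher in TET2 KO, an interaction of 5.30 ± 0.30 on the log2 scale, and those of LRAT and COL14A1 were of like size at −5.20 ± 0.29 and −5.10 ± 0.24. RPS6KL1, for the kinase-like protein, read 14.8, 15.3 and 14.1 CPM in TET2 WT shControl and 6.47, 3.51 and 4.62 CPM in TET2 WT shMBD6. In TET2 KO, RPS6KL1 read 4.47, 3.45 and 3.75 CPM in shControl and 18.6, 11.8 and 14.2 CPM in shMBD6. RPS6KL1 was 3.00-fold lower with shMBD6 in TET2 WT and 3.80-fold higher in TET2 KO, and TET2 WT shControl overlapped with TET2 KO shMBD6 and TET2 WT shMBD6 with TET2 KO shControl.

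Set against all genes tested, the background of change was wide. In TET2 WT 42.5% of tested genes were called for shMBD6 at an adjusted p under 0.05, in TET2 KO 36.4%, and 49.4% had a called interaction (24.2% also at least 2-fold). Since the rule used these contrasts, nothing is read from the members' place in them. Of the 26023 tested genes, 6710 were called in both genotypes, of which 3275 (12.6% of tested genes) were lower with shMBD6 in TET2 WT and higher in TET2 KO and 2648 (10.2%) the reverse. With a change of at least 2-fold in both genotypes, 72 genes had the pattern of AREG, C17orf99, SOX5, ST8SIA1, NT5DC4 and RPS6KL1 and 913 had that of GLIS3, COL6A2, COL14A1 and LRAT. The change had the same direction in both genotypes in 101 genes that were higher and 686 that were lower, or 10 and 3 at 2-fold. These counts rest on the TET2 KO labels, and exchanging shControl and shMBD6 there would turn crossed into same-direction counts. Over all genes tested the median log2 change was 0.10 in TET2 WT, −0.07 in TET2 KO and −0.19 for the interaction.

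**Figure D2:**
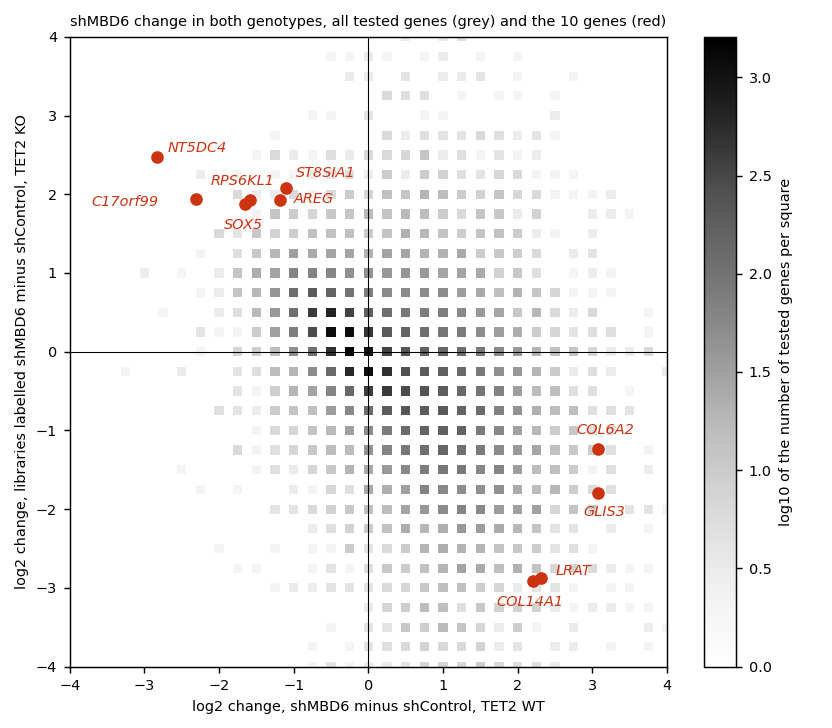
The shMBD6 change in TET2 WT (horizontal axis) against that in TET2 KO (vertical axis), both log2 changes of caRNA. Grey squares give the number of tested genes on a log10 scale, 723 genes beyond 4 on either axis are not drawn, and red points are the 10 genes, of which 6 lie at the upper left and 4 at the lower right. The TET2 KO axis follows the labels, which MBD6 itself went against.

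The genotypes also differed within each shRNA arm, given here as a description because these libraries chose the genes. With shControl, SOX5 was 11.5-fold, C17orf99 16.5-fold and NT5DC4 19.4-fold lower in TET2 KO than in TET2 WT, and GLIS3 was 29.2-fold higher. Between the libraries labelled shMBD6 the same genes differed less, by log2 changes of 0.00 ± 0.05 for SOX5, 0.21 ± 0.08 for C17orf99, 1.02 ± 0.20 for NT5DC4 and 0.01 ± 0.04 for GLIS3 (SE). The sign of the KO minus WT difference was opposite in the arms for 9 of the 10 genes, all but GLIS3, although for SOX5 and C17orf99 the shMBD6 value was near 0. It was at least 2-fold in both arms with opposite signs for 5 genes. For LRAT, COL6A2 and COL14A1 the log2 difference was 1.55, 2.15 and 2.98 with shControl and −3.65, −2.16 and −2.13 with shMBD6. RPS6KL1 and NT5DC4 ran from −1.92 and −4.28 with shControl to 1.59 and 1.02 with shMBD6, and ST8SIA1 and AREG from −2.55 and −2.44 to 0.64 and 0.69. Over the 10 genes, neighbouring groups in the order of levels overlapped in 8 of 30 cases. The share over all genes tested was not computed, so nothing is read from this count.

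The mean of both genotype differences, TET2 KO minus TET2 WT over shControl and shMBD6, was tested. In this balanced design its error is separate from that of the contrasts that chose the genes, and it does not use the shRNA labels. Its size is still tied to the choice. For SOX5 and GLIS3 the shMBD6 groups overlapped, so the shControl difference made up most of both values. These were averages of −1.76 and 2.44 and interactions of 3.52 and −4.86. The calls are therefore no independent support for the choice. By the edgeR quasi-likelihood test 8 of the 10 genes were called, against 52.7% of all genes tested. The average was higher in TET2 KO for GLIS3 and COL14A1 (27.7% of all genes were called higher) and lower for C17orf99, SOX5, NT5DC4, LRAT, ST8SIA1 and AREG (25.0% of all genes). It is a mean of unlike arms, since for every gene but GLIS3 the arms differed in sign. The median log2 difference was −0.92 over the 10 genes and 0.00 over all genes tested. GLIS3 had the largest difference, 2.44 ± 0.03 (SE; adjusted p = 1.06e-33), and COL14A1 a smaller one of 0.42 ± 0.12 (adjusted p = 0.00308), the mean of 2.98 with shControl and −2.13 with shMBD6.

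Among the 6 genes whose average was lower, C17orf99 differed by −1.92 ± 0.06 (adjusted p = 1.26e-24), SOX5 by −1.76 ± 0.03 (5.52e-30) and NT5DC4 by −1.63 ± 0.15 (2.52e-11). LRAT differed by −1.05 ± 0.14 (adjusted p = 2.02e-07), with its shControl arm alone running the other way. ST8SIA1 differed by −0.96 ± 0.17 (adjusted p = 2.91e-05) and AREG by −0.88 ± 0.14 (1.81e-06), and for these and NT5DC4 it was the shMBD6 arm that ran the other way. RPS6KL1, at −0.16 ± 0.12 (adjusted p = 0.259), and COL6A2, at 0.00 ± 0.12 (0.982), did not pass. With libraries scaled by total gene counts, a scaling that moved the median of all genes to −0.16, RPS6KL1 passed at −0.32 (adjusted p = 0.0256) and COL14A1 did not, at 0.26 (0.068).

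**Figure D3:**
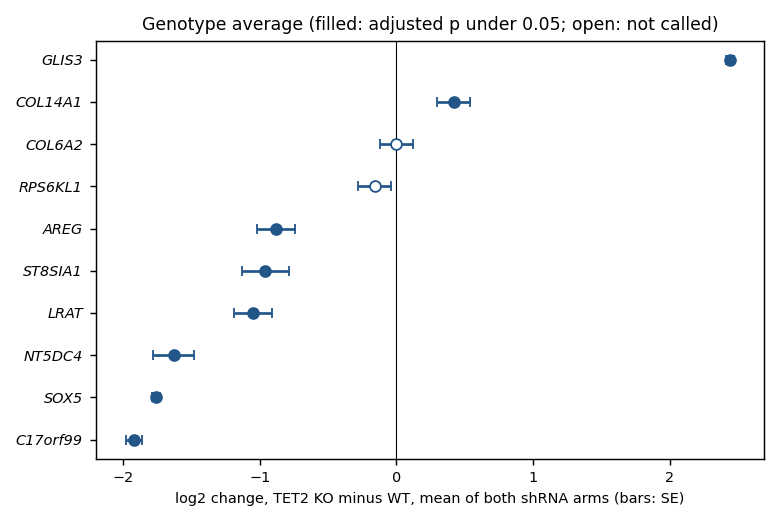
Log2 difference TET2 KO minus TET2 WT, averaged over both shRNA arms, for each of the 10 genes, with bars for the SE from 12 libraries. Filled points passed an adjusted p of 0.05 and open points did not. GLIS3 lies at 2.44, RPS6KL1 and COL6A2 are the open points near 0, and the lowest is C17orf99 at −1.92. The size of these values is tied to the choice of the genes.

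Levels between genes are given per kilobase of annotated gene span, introns included. In its highest group each gene read, in CPM per kilobase, 3.96 for C17orf99, 0.841 for AREG, 0.799 for NT5DC4, 0.768 for RPS6KL1, 0.540 for GLIS3, 0.534 for COL6A2, 0.227 for SOX5, 0.0839 for LRAT, 0.0442 for COL14A1 and 0.0216 for ST8SIA1. As a background, 400 olfactory receptor genes, which K562 should not use, averaged 0.0636 and 0.0731 CPM per kilobase for shControl and shMBD6 of TET2 WT, and 0.0914 and 0.0677 for the same arms of TET2 KO. C17orf99, AREG, RPS6KL1 and COL6A2 were at or above this level in all 4 groups. ST8SIA1 and COL14A1 were under it in all 4, and SOX5, GLIS3, LRAT and NT5DC4 were above it in some groups and under it in others. The spans of SOX5 (1030 kb), GLIS3 (524 kb), ST8SIA1 (373 kb), COL14A1 (314 kb) and LRAT (126 kb) dilute a signal from part of a gene. Another gene on the same strand overlapped C17orf99, LRAT, ST8SIA1 and GLIS3, whose counts are uncertain for that reason.

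In GENCODE v44 coordinates of hg38, SOX5 (ENSG00000134532) spans chr12:23529504-24562544 on the minus strand and ST8SIA1 (ENSG00000111728) chr12:22063773-22437041 on the minus strand. LRAT (ENSG00000121207) spans chr4:154626945-154753120 and AREG (ENSG00000109321) chr4:74445136-74455005, both on the plus strand. C17orf99 (ENSG00000187997) spans chr17:78146385-78166297, NT5DC4 (ENSG00000144130) chr2:112721020-112742879, COL6A2 (ENSG00000142173) chr21:46098112-46132848 and COL14A1 (ENSG00000187955) chr8:120059780-120373573, all on the plus strand. RPS6KL1 (ENSG00000198208) spans chr14:74903951-74923302 and GLIS3 (ENSG00000107249) chr9:3824127-4348392, both on the minus strand.

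The genes around the 10 were tested for the same contrasts. Within 500 kb of their starts lay 121 tested neighbours, of which 59 (48.8%) were called for shMBD6 in TET2 WT, 50 (41.3%) in TET2 KO and 66 (54.5%) for the interaction, near the 42.5%, 36.4% and 49.4% over all genes tested. Of the 66, 38 had an interaction of the same sign as the gene they neighboured and 28 the opposite sign, and 29 of the 121 were also at least 2-fold, where 24.2% of all genes were. The median interaction of the neighbours was −0.23 against −0.19 over all genes. For the genotype average 60 (49.6%) were called, against 52.7%.

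Some neighbours had an interaction of the same sign as the gene beside them. EREG, which encodes epiregulin, another EGF receptor ligand, lay 80.0 kb upstream of AREG and read 5.73, 3.73, 5.86 and 15.4 CPM (means of TET2 WT shControl, TET2 WT shMBD6, TET2 KO shControl and TET2 KO shMBD6). Its interaction was 2.01 ± 0.21 on the log2 scale (SE; adjusted p = 1.11e-09), in the direction of AREG, but its level was highest in TET2 KO shMBD6 and that of AREG in TET2 WT shControl. TMC8, a transmembrane channel-like gene 15.6 kb upstream of C17orf99, read 14.9, 4.67, 5.00 and 8.80 CPM with an interaction of 2.49 ± 0.21 (adjusted p = 8.15e-12), and was highest in TET2 WT shControl, as C17orf99 was. Near GLIS3, the glutamate transporter gene SLC1A1, 142 kb upstream, read 0.852, 2.24, 1.17 and 0.486 CPM, with an interaction of −2.66 ± 0.55 (adjusted p = 0.000128). Near LRAT the RNA-binding protein gene RBM46, 154 kb downstream, read 0.230, 0.518, 0.857 and 0.146 CPM with an interaction of −3.71 ± 0.88 (0.000651), but its change in TET2 WT did not pass (1.17 ± 0.61, 0.123) and it was highest in TET2 KO shControl, where LRAT was highest in TET2 WT shMBD6. The divergent noncoding gene COL6A2-DT, 0.582 kb upstream of COL6A2, held 8, 28, 17 and 0 counts over the 4 groups, highest in TET2 WT shMBD6 as COL6A2 was, but too few for a fold.

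Other neighbours ran against the gene beside them. LTBP2, a matrix protein gene 311 kb downstream of RPS6KL1, had an interaction of −2.71 ± 0.46 (adjusted p = 7.96e-06) where RPS6KL1 was positive. The 3 called neighbours of COL14A1 had a positive interaction, TAF2 of the general transcription factor TFIID among them at 0.74 ± 0.06 (adjusted p = 3.15e-12), where COL14A1 was negative.

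**Figure D4:**
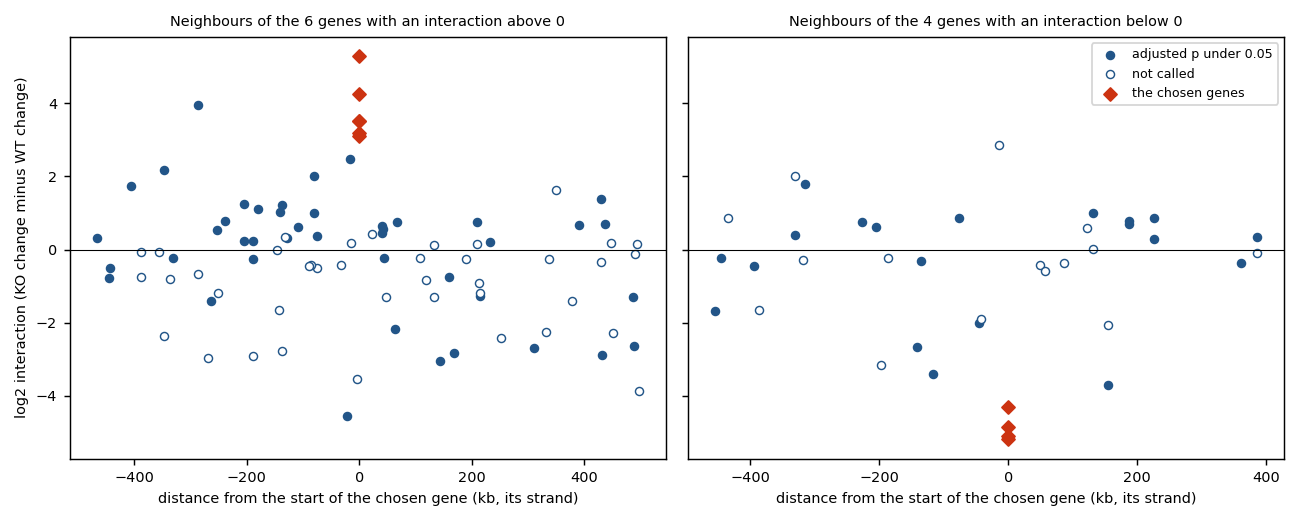
Interaction (KO change minus WT change, log2 scale, vertical axis) of 118 tested neighbours against the distance of their start from that of the chosen gene in kb along its strand (horizontal axis). Neighbours of the 6 genes with a positive interaction are on the left and of the other 4 on the right, filled where called, and red diamonds are the chosen genes. Not drawn are 3 neighbours with a group at 0 counts. Filled points lie on both sides of 0 in both panels.

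Families and pathways of the 10 genes were read from hand-written lists without the 10 genes themselves. The lists were chosen with earlier results of these data known, so their shares are no independent support for the 10 genes. Of 145 listed genes 126 were tested, and 71 (56.3%, against 42.5% of all genes tested) were called for shMBD6 in TET2 WT. Of these 49 (38.9% of the 126) were higher and 22 (17.5%) lower, against 17.7% and 24.7% of all genes. In TET2 KO 56 (44.4%, against 36.4%) were called, 18 (14.3%) higher and 38 (30.2%) lower, against 15.7% and 20.6%. For the interaction 79 (62.7%, against 49.4%) were called, 21 (16.7%) above 0 and 58 (46%) below, against 23.9% and 25.5%. The median interaction was −0.60 against −0.19 over all genes tested, the direction of GLIS3, COL6A2, COL14A1 and LRAT. For the genotype average 82 (65.1%, against 52.7%) were called, 42 higher and 40 lower. The median interaction over all genes was −0.62 with no filter and −0.03 over genes at a CPM of at least 1 in 3 libraries. The number of genes with any count was also highest in TET2 WT shMBD6 and lowest in TET2 KO shMBD6. The part of both in these counts was not tested.

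Of 31 other collagen chains, 16 were called higher and 2 lower with shMBD6 in TET2 WT, and 4 higher and 12 lower in TET2 KO. The interaction was called in 20, 1 above 0 and 19 below, with a median of −1.27. COL1A1, a chain of fibrillar collagen I, read 0.236, 2.23, 1.89 and 0.384 CPM in the 4 groups, an interaction of −5.54 ± 0.66 (adjusted p = 1.14e-08). COL5A3 read 0.266, 0.766, 0.357 and 0.0683 CPM, with −3.84 ± 1.07 (0.00313), and COL20A1 0.246, 0.683, 0.776 and 0.0173 CPM. COL16A1 held 155, 406, 139 and 1 counts over the groups. The sign of 19 of these 20 interactions was that of COL6A2 and COL14A1. The exception was COL6A5, like COL6A2 a collagen VI gene, at 109.0, 67.2, 77.8 and 127.0 CPM (1.41 ± 0.06, adjusted p = 9.89e-20). COL6A3, also of collagen VI, read 60.6, 210.0, 212.0 and 170.0 CPM, with −2.12 ± 0.05 (7.44e-26). The 4 chains named before these 2 were at far lower levels. COL1A1 read 0.0135 CPM per kilobase in TET2 WT shControl and 0.0219 in TET2 KO shMBD6. Both lay under the olfactory receptor means of 0.0636 and 0.0677 in those groups. The part of such low levels, and of the shift over all genes, in the collagen counts was not tested.

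Among 10 tested relatives of GLIS3 (GLIS, GLI and ZIC zinc fingers), 6 had a called interaction below 0 and 1 above, with a median of −2.44. GLI2, a mediator of Hedgehog signals, read 1.07, 5.47, 1.99 and 0.349 CPM, and GLIS1 2.47, 8.21, 6.01 and 2.77 CPM. Their interactions were −4.85 ± 0.46 (adjusted p = 7.65e-11) and −2.85 ± 0.27 (1.04e-10), and ZIC1 had −2.47 ± 0.59 (0.000742). Of 7 tested SOX genes, 2 had a called interaction above 0 and 2 below. SOX6, which pairs with SOX5 and represses embryonic globin genes in red cells, read 252.0, 138.0, 125.0 and 196.0 CPM and had an interaction of 1.52 ± 0.05 (adjusted p = 1.17e-22), the sign of SOX5 and a smaller size. SOX13, the other close relative, had −2.24 ± 0.49 (0.000245), and SOX30 −2.95 ± 0.87 (0.00513).

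Of 19 genes for other EGF ligands, receptors and sheddases, 12 had a called interaction below 0 and 3 above, so most ran against AREG, with a median of −0.83. HBEGF, heparin-binding EGF, read 0.617, 1.03, 1.37 and 0.392 CPM, and the neuregulin gene NRG3 6.06, 11.4, 2.58 and 1.16 CPM, with interactions of −2.54 ± 0.62 (adjusted p = 0.000961) and −2.04 ± 0.38 (6.52e-05). TGFA held 107, 366, 23 and 1 counts over the groups. In the retinoid list of 26 tested genes, 4 interactions were called above 0 and 7 below, with a median of −0.44. DHRS9, a retinol dehydrogenase, read 0.161, 1.87, 2.72 and 0.767 CPM, ALDH1A1, which makes retinoic acid, 5.17, 10.5, 12.9 and 7.53 CPM, and the retinoic acid receptor gene RARB 4.38, 9.42, 16.7 and 9.81 CPM. All 3 had called interactions below 0, as LRAT did, but in TET2 KO shMBD6 they stayed above their TET2 WT shControl level and LRAT did not.

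For ST8SIA1 the ganglioside list had 2 interactions above 0 and 7 below among 14 tested genes, with a median of −0.21, and the sialyltransferase gene ST8SIA5 ran against ST8SIA1 at −1.42 ± 0.41 (adjusted p = 0.0044). For NT5DC4 the nucleotidase list had 6 above 0 and 1 below among 10, with a median of 0.36. NT5C and NT5C3B, both cytosolic nucleotidases, had interactions of 1.44 ± 0.14 (9.72e-11) and 1.19 ± 0.11 (6.36e-11), the sign of NT5DC4 at a smaller size. For RPS6KL1 the S6 kinase list had 2 above 0 and 4 below among 9, with a median of −0.40, and RPS6KA5 had −1.13 ± 0.05 (5.64e-20).

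The protein-coding genes whose log2 CPM was most like each of the 10 over the 12 libraries are given by Pearson's r, as a description, since the points share 4 groups and their libraries. For SOX5 these were ANK1, WNK4 and LSS (r of 0.993 each), and for C17orf99 ANK1, LMO2 and LSS (0.991 to 0.992). NT5DC4 was most like ENSG00000196826, GADD45A and PHF19 (0.985 to 0.991), AREG like GYPE, ERMAP and KALRN (0.966 to 0.985), ST8SIA1 like DDIT4, FGFR3 and RASIP1 (0.947 to 0.959) and RPS6KL1 like PER2, ERP29 and ZNF514 (0.975 to 0.981). For GLIS3 they were TMEM51, DCT and TMEM154 (0.995 to 0.997), for COL6A2 GUCA1B, SV2C and COL5A1 (0.980 to 0.987), for LRAT PPP1R3A, PLB1 and PPP2R5C (0.980 to 0.987) and for COL14A1 DGKH, H4C8 and AGAP1 (0.987 to 0.994). Likeness in r does not mean a like range. AGAP1 ran from 1930 to 2430 CPM over the group means, while COL14A1 ran from 1.77 to 13.9 CPM. Between the 10 genes themselves r ran as high as 0.989, for C17orf99 with SOX5, and as low as −0.990, for C17orf99 with GLIS3.

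In mESC the question was whether the orthologues differed with depletion of Nsun2, a contrast that no part of the selection used. Nsun2 itself read 126.0 to 133.0 CPM in siControl and 98.8 to 106.0 CPM in siNsun2, lower by a log2 change of −0.34 ± 0.03 (adjusted p = 2.78e-16). Orthologues of 8 genes were matched by symbol. All 8 read higher in siNsun2, and 6 were called higher and 0 lower, where 50.2% of all mouse genes tested were called, 25.8% higher and 24.3% lower. The median log2 change was 0.50 over the 8 and 0.14 over all genes tested. The largest in absolute level was Glis3, with 215.0, 207.0 and 211.0 CPM in siControl and 287.0, 278.0 and 290.0 CPM in siNsun2, a log2 change of 0.44 ± 0.02 (SE; adjusted p = 1.06e-27).

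Sox5 read 57.9, 59.7 and 56.3 CPM in siControl and 77.2, 78.4 and 77.6 CPM in siNsun2, a change of 0.42 ± 0.04 (adjusted p = 7.75e-17), so that Sox5 and Glis3 rose together in mESC, while their human counterparts ran in opposite directions under another depletion in K562. The collagen genes also rose, Col14a1 from 7.18, 8.10 and 8.62 to 11.5, 10.9 and 13.0 CPM (0.57 ± 0.10, 8.65e-07) and Col6a2 from 2.03, 1.5 and 1.13 to 3.00, 3.11 and 2.08 CPM (0.81 ± 0.21, 0.00084). Rps6kl1 rose from 3.81, 4.26 and 4.36 to 5.04, 6.07 and 5.30 CPM (0.40 ± 0.14, 0.0118), a call lost without siControl replicate 1 (0.0608) or siNsun2 replicate 2 (0.0864). Lrat rose from 0.271, 0.118 and 0.377 to 0.733, 0.482 and 0.636 CPM (1.26 ± 0.47, 0.021), a call lost without siControl replicate 2 (0.112), siNsun2 replicate 1 (0.0953) or siNsun2 replicate 3 (0.056). St8sia1 changed by 0.11 ± 0.06 (adjusted p = 0.138) and Areg, at 3 to 22 counts a library, by 0.78 ± 0.69 (0.357), and neither passed.

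**Figure D5:**
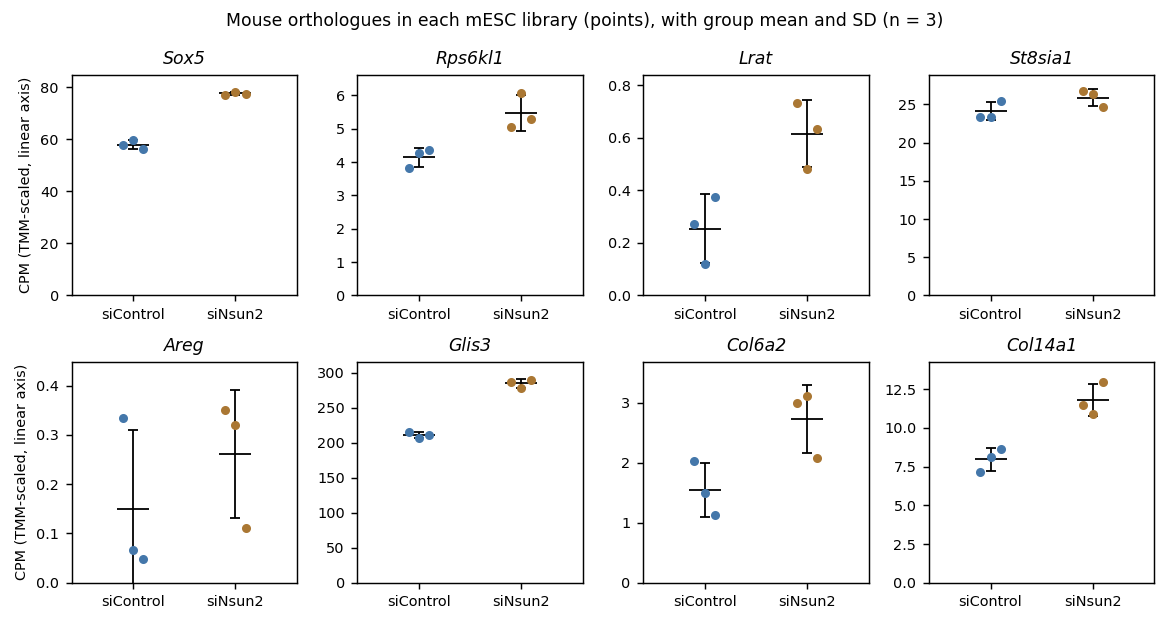
Level of 8 mouse orthologues in every mESC library. The vertical axis is CPM with TMM scaling on a linear scale from 0, points are libraries, and black marks are the mean and SD of 3 libraries. Sox5, Rps6kl1, Lrat, Glis3, Col6a2 and Col14a1 are apart between siControl and siNsun2, and St8sia1 and Areg overlap.

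Other values moved with siNsun2. Records that fell in no annotated gene were 19.56% to 20.23% of the total in siControl and 28.94% to 29.86% in siNsun2, and the mean of 1093 olfactory receptor genes was 0.0278 and 0.0414 CPM per kilobase. Areg (0.0170 and 0.0295 CPM per kilobase) and, in siControl, Lrat (0.0224) were below that mean. Of 8 markers of embryonic stem cells 7 had counts in all 6 libraries and Sox2 was at 0. Their summed level was 1240 to 1280 CPM in siControl and 1060 to 1080 CPM in siNsun2. The 0 of Sox2 need not mean absent RNA. In K562, 95.3% of genes enclosed by another gene on the same strand were at 0, and whether this applies to Sox2 was not tested. All 8 feeder fibroblast markers had counts, at 48.7 to 51.5 and 38.7 to 39.2 CPM. The part of these differences in the orthologues' changes was not tested.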

How the data were processed

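Chromatin-associated RNA was sequenced in 12 K562 and 6 mESC libraries. The authors removed ribosomal RNA, made stranded libraries, and per the labels and methods trimmed reads with Trimmomatic 0.39, aligned them with HISAT2 2.2.1 (hg38 or mm10) and counted genes with HTSeq 0.12.4. The methods also name featureCounts, and the feature type counted is not given in the sources used here. The authors deposited whole-number read counts per gene, which were used as raw counts. The study added ERCC spike-in RNA to its caRNA and took spike-in reads into its scaling. Spike-in reads were not used here, so levels and differences are relative to the other genes of each library. Records outside genes were left out of library sizes (13.1% to 16.0% in K562). In K562, 95.3% of genes enclosed by another gene on the same strand were at 0, against 21.9% on the opposite strand, so counts of overlapping genes are uncertain.

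Groups came from the labels. Genes passed edgeR's filterByExpr (minimum count of 10), counts were scaled by TMM, and 1 model per cell type with a mean per group was fitted with the quasi-likelihood test of edgeR 4.0.16 (R 4.3.3). Benjamini-Hochberg adjustment ran over every tested gene, and genes were called at an adjusted p under 0.05. The members and lists were chosen with earlier results of these data known. Therefore only contrasts that the choice did not name were tested on the members. The genotype average is still tied in size to the interaction, so its calls are no independent support for the choice. Named were all members, TET2, MBD6, for each member the nearest called neighbour and the one with the largest interaction, 3 protein-coding genes of highest Pearson's r (log2 CPM, prior count of 2), and up to 4 genes per related list called with a change of at least 2-fold in either genotype or in the interaction. COL6A3 and COL6A5 were named in addition, as well-counted collagen VI genes. Gene IDs were matched to GENCODE v44 (99.12%) and vM21 (99.93%). Replicate libraries differed by more than counting noise in all 18 pairs. Same-numbered libraries did not deviate together. Alternatives were other scalings, filters, DESeq2 1.42.0, a replicate block, a fold threshold, other neighbour windows and leaving out each library. The test was checked on simulated counts for the genotype average and the siNsun2 contrast alone, with the same dispersion for every gene. The interaction and the shMBD6 contrasts were not simulated. Intervals of depth cover counting error only. P-values measure the spread between these libraries.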

Additional observations from a re-analysis of the deposited data

Results flagged for a closer look

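The interaction, the difference of the shMBD6 change between TET2 KO and TET2 WT, passed the edgeR quasi-likelihood test for the targeted genes and for named neighbours and relatives of the 10 genes. Each is given as a log2 interaction ± SE with its adjusted p, and every direction rests on the TET2 KO labels. MBD6 had 0.75 ± 0.11 (adjusted p = 4.51e-07) and TET2 −0.45 ± 0.06 (5e-08).

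Of 15 neighbours, 8 had an interaction above 0 and 7 below. Above 0 were ENSG00000269559 (3.95 ± 1.43, adjusted p = 0.0222) and EREG (2.01 ± 0.21, 1.11e-09) near AREG, TMC8 near C17orf99 (2.49 ± 0.21, 8.15e-12) and PLRG1 near LRAT (0.85 ± 0.10, 5.42e-09). TAF2 (0.74 ± 0.06, 3.15e-12) and DSCC1 (0.62 ± 0.12, 5.27e-05) near COL14A1, C2CD5 near ST8SIA1 (0.62 ± 0.08, 1.97e-08) and DLST near RPS6KL1 (0.57 ± 0.08, 1.03e-07) were also above 0. Below 0 were LINC00477 near SOX5 (−4.57 ± 1.88, adjusted p = 0.0436), RBM46 near LRAT (−3.71 ± 0.88, 0.000651), LTBP2 near RPS6KL1 (−2.71 ± 0.46, 7.96e-06) and SLC1A1 near GLIS3 (−2.66 ± 0.55, 0.000128). IL1A (−2.17 ± 0.77, 0.0201) and CKAP2L (−0.22 ± 0.09, 0.0342) near NT5DC4 and LINC02955 near ST8SIA1 (−1.40 ± 0.35, 0.00112) were also below 0.

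Of 20 relatives named by the size of their change, 3 had an interaction above 0 and 17 below. Above 0 were SOX6 (1.52 ± 0.05, adjusted p = 1.17e-22), NT5C (1.44 ± 0.14, 9.72e-11) and NT5C3B (1.19 ± 0.11, 6.36e-11). The collagen genes COL20A1, COL1A1 and COL5A3 had −6.76 ± 1.13 (5.7e-06), −5.54 ± 0.66 (1.14e-08) and −3.84 ± 1.07 (0.00313). The retinoid genes DHRS9, CRABP2, RARB and ALDH1A1 had −5.29 ± 0.60 (4.33e-09), −2.42 ± 0.98 (0.0409), −1.86 ± 0.19 (3.2e-10) and −1.79 ± 0.19 (1.15e-09). GLI2, GLIS1 and ZIC1 had −4.85 ± 0.46 (7.65e-11), −2.85 ± 0.27 (1.04e-10) and −2.47 ± 0.59 (0.000742). SOX30 and SOX13 had −2.95 ± 0.87 (0.00513) and −2.24 ± 0.49 (0.000245). HBEGF, EGFR and NRG3 had −2.54 ± 0.62 (0.000961), −2.26 ± 0.84 (0.0267) and −2.04 ± 0.38 (6.52e-05). ST8SIA5 had −1.42 ± 0.41 (0.0044) and RPS6KA5 −1.13 ± 0.05 (5.64e-20).

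Of these 35 neighbours and relatives, 6 lost their call when 1 library was left out. IL1A lost it without any of 3 libraries (adjusted p of 0.054 to 0.0734), CKAP2L of 7 (0.0546 to 0.121), LINC00477 of 9 (0.0502 to 0.156), ENSG00000269559 of 4 (0.0524 to 0.127), EGFR of 5 (0.0523 to 0.119) and CRABP2 of 5 (0.0534 to 0.167). Another 8 named genes had at most 3 counts in a group and are given no fold, TMEM235, KLF4P1, COL6A2-DT, TGFA, COL16A1, SOX4, ZIC4 and ST8SIA2.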

How the results depend on the processing

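No called value changed its sign under the alternatives run. The genotype average of COL6A2, not called under any, lay between −0.17 and 0.07. For the genotype average, RPS6KL1 gained and COL14A1 lost its call with total gene counts. With the additional requirement of a 2-fold change, 5 in place of 8 of the 10 genes and 5920 in place of 13710 of all genes were called for the genotype average, and 1 in place of 6 orthologues. Under it 12 neighbours were called in TET2 WT, 8 in TET2 KO, 29 for the interaction and 18 for the genotype average, and 26, 22, 45 and 39 related genes. Neighbours within 100 kb gave 11, 11, 15 and 13 calls in these 4 comparisons and within 1000 kb 95, 78, 110 and 114. By Spearman's rho 7 of the 30 genes most like the 10 stayed among the top 3. Same-numbered libraries correlated by −0.017 to 0.02 in K562 and −0.002 to 0.025 in mESC, so the numbers were not taken as pairs. With the replicate block 8 of the 10 genes and 13703 of all genes were called for the genotype average. Scaling by total gene counts moved the median of all mouse genes from 0.14 to 0.32, and St8sia1 then passed at 0.29 (adjusted p = 6.6e-05). In TET2 KO, MBD6 passed as higher in the libraries labelled shMBD6 under 8 alternatives, with log2 changes of 0.19 to 0.31. With 3 libraries a group, genes at a few counts per library, such as Areg in mESC, have wide intervals, and depth limits them.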
